A study of Homo sapiens with 18 samples.

Results

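The glycolysis and hypoxia response genes are a named set of 40 genes: enzymes that turn glucose into lactate, the transporters and kinases that set the flux, the oxygen-sensing machinery around hypoxia-inducible factor (HIF), and genes that HIF is known to induce. They were listed by name, with earlier results of these data known, and 38 of the 40 were rows of the deposited table of 17026 endogenous genes. LDHB and CA9 were not analysed here. The 38 comprised 16 glycolytic enzymes, 4 sugar and lactate transporters, 5 flux-setting kinases, 2 HIF alpha subunits, 4 genes of oxygen sensing and HIF turnover, and 7 hypoxia-induced genes.

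RNA was measured in BxPC-3, MiaPaCa-2 and PANC-1, 3 human pancreatic ductal adenocarcinoma cell lines. Each line was given DMSO, the solvent, or 100 nM THZ1 for 6 h, with 3 biological replicates in each of the 6 groups and 18 libraries in all. THZ1 is a covalent inhibitor of CDK7, a kinase of the general transcription machinery, and it also binds CDK12 and CDK13. The labels give no genetic change or oxygen setting for any group: all 6 groups were grown in F12 medium with serum, β-glycerophosphate and ascorbic acid, and each line is a single established line. Ascorbate is a cofactor of the HIF hydroxylases, and both DMSO and THZ1 groups had it.

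Glycolysis converts glucose to pyruvate in the cytosol, and lactate dehydrogenase turns pyruvate into lactate, which monocarboxylate transporters carry out of the cell. When oxygen is scarce, prolyl hydroxylases no longer mark the HIF alpha subunits for destruction through VHL, and HIF then raises transcription of glycolytic enzymes, glucose transporters, PDK1, VEGFA, BNIP3 and other genes. Pancreatic ductal adenocarcinoma is known as a poorly perfused, glycolytic tumour.

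The DNA core that HIF binds, ACGTG or GCGTG on either strand, was searched in the 250 bases before each RefSeq transcript start (GRCh38.p14). A start was found for 31 of the 38 genes, and none was listed for SLC2A3, SLC16A1, VHL, VEGFA, BNIP3L, PFKFB2 and NDRG1. The core was present before 34 of the 59 starts of these genes (57.6%) and before 15172 of all 35116 starts (43.2%). It stood before 19 of 36 starts of enzymes, 5 of 6 of the kinases and 3 of 4 of the hypoxia-induced genes. ACGTG also lies inside CACGTG, the E-box that MYC and other factors bind, so that a match is a string of letters and not a site. Single-start genes that the results below turn on are shown 5′ to 3′ in the direction of the gene, with core matches in capitals: PGK1 (chrX:78103998-78104247, plus strand) with matches on both strands, GAPDH (chr12:6535014-6535263, plus strand) with 1 E-box, PFKFB4 (chr3:48556804-48557053, minus strand) with 1 GCGTG, and HIF1AN (chr10:100535693-100535942, plus strand) with no match.
PGK1: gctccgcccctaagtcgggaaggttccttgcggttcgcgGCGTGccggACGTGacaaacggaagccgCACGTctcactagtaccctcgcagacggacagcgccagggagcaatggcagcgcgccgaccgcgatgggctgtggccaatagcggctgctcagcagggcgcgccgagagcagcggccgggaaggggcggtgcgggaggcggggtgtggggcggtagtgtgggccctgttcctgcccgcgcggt
GAPDH: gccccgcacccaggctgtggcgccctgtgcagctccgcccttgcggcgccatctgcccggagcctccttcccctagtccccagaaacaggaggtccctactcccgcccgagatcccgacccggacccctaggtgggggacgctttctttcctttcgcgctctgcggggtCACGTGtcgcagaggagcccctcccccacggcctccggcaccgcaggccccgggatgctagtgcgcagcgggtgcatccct
PFKFB4: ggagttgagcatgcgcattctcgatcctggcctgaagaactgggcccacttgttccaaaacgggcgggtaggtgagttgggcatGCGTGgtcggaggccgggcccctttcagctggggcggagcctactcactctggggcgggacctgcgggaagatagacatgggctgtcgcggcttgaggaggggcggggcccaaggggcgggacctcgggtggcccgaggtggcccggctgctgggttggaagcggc
HIF1AN: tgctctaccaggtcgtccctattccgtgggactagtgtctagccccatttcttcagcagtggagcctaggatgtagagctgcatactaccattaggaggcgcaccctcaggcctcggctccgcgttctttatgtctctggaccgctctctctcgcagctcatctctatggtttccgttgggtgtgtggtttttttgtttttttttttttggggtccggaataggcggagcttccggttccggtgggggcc

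Values are given on the deposited scale, a whole number of reads divided by a divisor for each library and multiplied here by 17.6795, so that the mean library sums to 1e+06. They are not per length, so levels are compared between libraries and not between genes. Endogenous reads ranged from 6336140 to 20862888 per library, and a value of 1 stood for 6.34 to 24.7 reads. A change is the difference of mean log2(value + 1), THZ1 minus DMSO, with its standard error (SE); it understates the change of genes with low values. A gene was called where limma's Benjamini-Hochberg adjusted p over all 15354 tested genes was under 0.05, and "rose" and "fell" are used of called changes. The scale matters: the median change of all genes was 0.25 in BxPC-3, 0.19 in MiaPaCa-2 and -0.07 in PANC-1 on the deposited scale, -0.64, -0.85 and -0.31 with libraries scaled to their ERCC spike-ins, and -0.04, -0.00 and 0.01 with TMM factors. The spike-ins were added to extracted RNA, so neither the deposited nor the ERCC scale counts cells. Less RNA per cell cannot be told apart from fewer cells. PANC-1 DMSO replicate 1 stood apart: it was the shallowest library, its residual SD was 0.519 where the other libraries had 0.103 to 0.309, and its mitochondrial mRNA share was 1.95% where the other PANC-1 DMSO libraries had 4.04% and 4.05%. The epithelial keratins KRT8, KRT18 and KRT19 were present in all 3 lines (group means 60.7 to 3132). Of these and CDH1, 4 of 4 rose in BxPC-3 (median change 1.16), 3 in MiaPaCa-2 (0.67) and 0 in PANC-1 (-0.01). Of all genes, 40.0%, 36.5% and 0.274% rose in the 3 lines. CDH1 was at 298 in BxPC-3 and at 0.179 and 3.31 in MiaPaCa-2 and PANC-1 with DMSO. The mesenchymal markers VIM and ZEB1 were at 12.3 and 0.909 in BxPC-3, 1413 and 38.6 in MiaPaCa-2 and 1372 and 33.7 in PANC-1 with DMSO, and of these VIM rose in BxPC-3 (1.11) and MiaPaCa-2 (0.77). Of markers of blood, vessel and fibroblast cells, VWF had group means of 0.348 to 2.54, COL1A1 of 0.898 to 34.8 and COL1A2 of 0.202 to 92.1, and PTPRC, CD3E, PECAM1 and DCN were not among the rows used; their part in the results was not tested. The p-values reflect nothing beyond the variation among these cultures.

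With THZ1, most of the set rose in BxPC-3 and MiaPaCa-2 on the deposited scale, and no member was called in PANC-1. In BxPC-3, 27 of 38 members rose and 2 fell, where 40.0% of all tested genes rose and 18.9% fell. In MiaPaCa-2, 23 rose and 3 fell, against 36.5% and 19.8% of all genes. In PANC-1 limma called 0 higher and 0 lower, against 0.274% and 0.228% of all genes. At an unadjusted p under 0.05, 11 members were higher and 1 lower, where 3407 of all 15354 genes passed in either direction. On the recovered reads edgeR also called 0 members (19 of all 15354 genes), and DESeq2 called 3 higher (353 of all 15354 genes). The median change of the members was 0.84, 0.63 and 0.14 in the 3 lines, above the all-gene medians given before. The mitochondrial mRNA share was also higher with THZ1: in BxPC-3 the DMSO libraries had 4.79% to 4.90% and the THZ1 libraries 7.15% to 7.22%. In MiaPaCa-2 the shares were 4.51% to 4.73% and 6.48% to 6.95%, and the PANC-1 THZ1 libraries had 4.58% to 4.79%. Its part in the members' changes was not tested. The direction turned with ERCC scaling: 0 members rose and 14 fell in BxPC-3 (1.28% and 59.1% of all genes), 0 rose and 22 fell in MiaPaCa-2 (1.36% and 73.9%), and 0 rose and 0 fell in PANC-1 (0.0323% and 18.4%). No member was higher there at an unadjusted p under 0.05 in any line. With TMM factors 19 rose and 6 fell in BxPC-3 (22.4% and 29.9% of all genes), 18 rose and 4 fell in MiaPaCa-2 (24.8% and 26.6%), and 0 rose and 0 fell in PANC-1 (0.0457% and 0.0979%). A library factor moves all genes of a library nearly alike, so the position relative to other genes depends little on the scale: 29, 29 and 30 members lay above the all-gene median with the deposited values, 28, 25 and 28 after ERCC scaling, and 29, 29 and 31 with TMM factors.

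**Figure D1:**
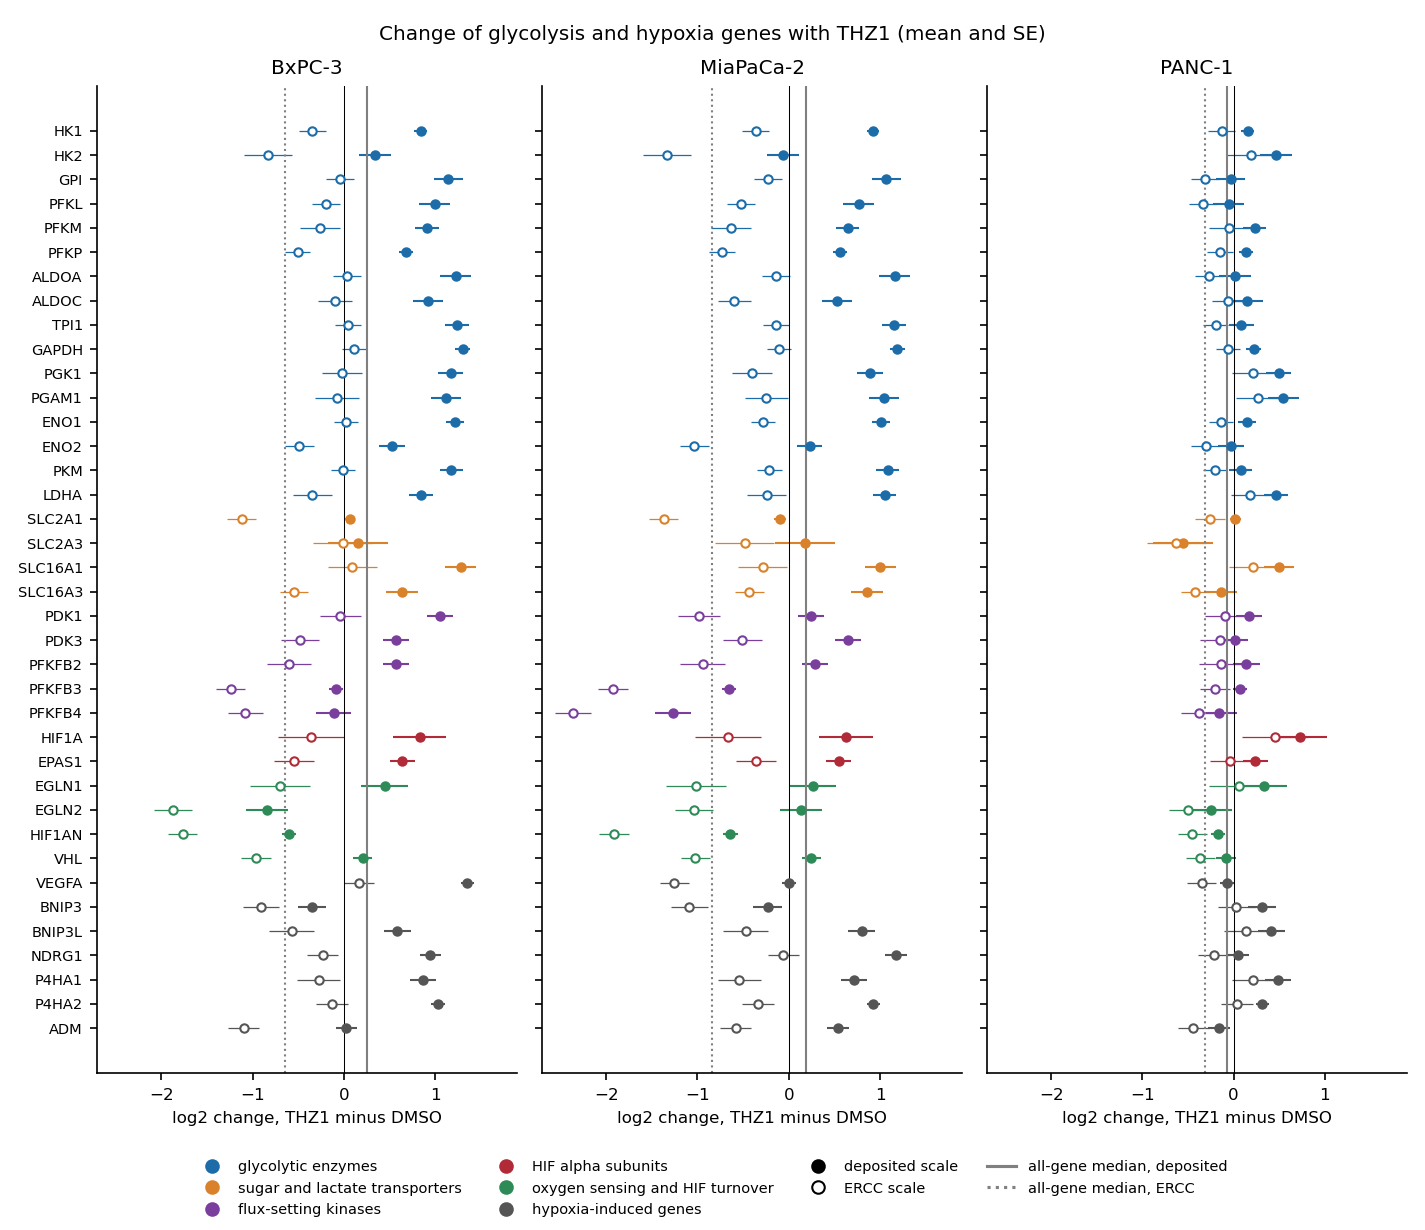
Change of each of the 38 members with THZ1 (log2, x axis) in the 3 lines, by role, with SE bars; filled points are the deposited scale, open points the ERCC scale, grey lines the all-gene medians. The enzymes lie between 0.34 and 1.30 in BxPC-3 and between -0.06 and 1.19 in MiaPaCa-2 on the deposited scale and between -1.34 and 0.26 on the ERCC scale over the 3 lines, and most lie to the right of the all-gene median on both.

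The calls in PANC-1 rested on its DMSO libraries. Without DMSO replicate 1, 10 members rose and 0 fell in PANC-1 (5.63% and 1.35% of all genes): GPI, ALDOA, TPI1, GAPDH, PGK1, PGAM1, ENO1, PKM, LDHA and P4HA2, with changes of 0.24 to 0.32. Without DMSO replicate 2, 5 rose (3.33% of all genes), and without DMSO replicate 3, 10 rose (10.5%), among them HIF1A by 1.05 and PGK1 by 0.61. DMSO replicate 1 is 1 of only 2 control libraries in those last fits. PGK1, PGAM1 and LDHA were called in each of the 3.

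The glycolytic enzymes moved together. Of 16, 15 rose and 0 fell in BxPC-3 (40.0% and 18.9% of all genes), with a median change of 1.06. In MiaPaCa-2 14 rose and 0 fell (36.5% and 19.8% of all genes), with a median of 0.97. In PANC-1 none was called and the median was 0.15. When DMSO replicate 1 was left out the median was 0.24, with 9 of 16 called higher (5.63% of all genes). With ERCC scaling the medians were -0.08, -0.32 and -0.13 in the 3 lines. There 3, 7 and 0 enzymes were called lower, beside 59.1%, 73.9% and 18.4% of all genes. With TMM factors the medians were 0.67, 0.73 and 0.24. Here 13, 12 and 0 enzymes were called higher, beside 22.4%, 24.8% and 0.0457% of all genes.

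GAPDH, which oxidises glyceraldehyde 3-phosphate, had the highest mean change of the enzymes. Its value was 2279, 2351 and 2340.5 in the BxPC-3 DMSO libraries and 5518, 5885 and 5806 with THZ1, a change of 1.30 (SE 0.08, adjusted p 1.91e-09). In MiaPaCa-2 it was 1557, 1501 and 1483 with DMSO and 3524, 3354 and 3491 with THZ1, a change of 1.19 (SE 0.08, adjusted p 8.83e-09). All THZ1 libraries of these lines lay above all their DMSO libraries. In PANC-1 GAPDH was 1187, 1061 and 966 with DMSO and 1317, 1144 and 1278 with THZ1, so the groups overlapped (change 0.22, adjusted p 0.154; 0.30 with adjusted p 0.00395 without DMSO replicate 1). The ERCC scale gave GAPDH changes of 0.11, -0.10 and -0.06 in the 3 lines, none of them called.

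The enzymes next to GAPDH in the pathway showed the same pattern of levels. ALDOA, the aldolase that splits fructose 1,6-bisphosphate, was 1652, 1792 and 1815 with DMSO and 3953, 4200.1 and 4162 with THZ1 in BxPC-3 (1.23, adjusted p 1.28e-05). In MiaPaCa-2 ALDOA was 1374, 1291 and 1313 with DMSO and 3089, 2874 and 2932 with THZ1 (1.16, adjusted p 2.68e-05). Both lines separated without overlap. In PANC-1 ALDOA was 2641, 1496 and 1328 with DMSO, where replicate 1 was the high value, and 1929.6, 1581 and 1771 with THZ1 (0.01, adjusted p 0.964; 0.32 with adjusted p 0.00832 without that library). TPI1, which interconverts the triose phosphates, was 827, 873 and 871 with DMSO and 1981, 2049.9 and 2047 with THZ1 in BxPC-3 (1.24, adjusted p 8.39e-07). Its MiaPaCa-2 values were 598, 565 and 574 with DMSO and 1341, 1258 and 1275 with THZ1 (1.16, adjusted p 2.37e-06), and its PANC-1 values were 568, 371 and 336 with DMSO and 477, 398 and 444 with THZ1 (0.09, adjusted p 0.698; 0.31 with adjusted p 0.00447 without DMSO replicate 1).

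ENO1, the main enolase, was 2651, 2822 and 2894 with DMSO and 6333, 6525 and 6568 with THZ1 in BxPC-3 (1.22, adjusted p 2.49e-08). It was 2659, 2535 and 2553 with DMSO and 5365, 5091 and 5206 with THZ1 in MiaPaCa-2 (1.02, adjusted p 2.69e-07). In PANC-1 ENO1 was 2403, 1975 and 1786 with DMSO and 2444, 2068 and 2281 with THZ1 (0.15, adjusted p 0.349; 0.27 with adjusted p 0.011 without DMSO replicate 1). Only the PANC-1 groups overlapped. PKM, the pyruvate kinase of most tissues and tumours, was 4869, 5194 and 5264 with DMSO and 11314, 11688 and 11697 with THZ1 in BxPC-3 (1.18, adjusted p 9.06e-07). PKM was 1905, 1792 and 1795 with DMSO and 4054, 3744 and 3845 with THZ1 in MiaPaCa-2 (1.08, adjusted p 2.95e-06), and 2996, 2063 and 1868 with DMSO and 2612, 2165 and 2396 with THZ1 in PANC-1 (0.08, adjusted p 0.717; 0.28 with adjusted p 0.0116 without DMSO replicate 1).

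The isomerase and the liver-type phosphofructokinase rose as well. GPI, which converts glucose 6-phosphate to fructose 6-phosphate, was 512, 540.3 and 539 with DMSO and 1152, 1188 and 1183 with THZ1 in BxPC-3 (1.15, adjusted p 1.29e-05). In MiaPaCa-2 GPI was 438, 421 and 419 with DMSO and 929, 863 and 894 with THZ1 (1.07, adjusted p 3.1e-05). In PANC-1 it was 487, 285 and 252 with DMSO and 348, 293 and 319 with THZ1, a change of -0.03 that was 0.25 (adjusted p 0.0161) without DMSO replicate 1. The sign of the PANC-1 change thus turned on 1 library. PFKL was 149, 153 and 159 with DMSO and 297, 318 and 306 with THZ1 in BxPC-3 (1.00, adjusted p 0.000106), 254, 239 and 235 with DMSO and 444, 401 and 397 with THZ1 in MiaPaCa-2 (0.77, adjusted p 0.00118), and 116, 67.1 and 58.7 with DMSO and 83.8, 63.1 and 76.9 with THZ1 in PANC-1 (-0.05, adjusted p 0.852; 0.24, not called, without DMSO replicate 1).

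The remaining enzymes varied in size. PGK1 and PGAM1, which carry the pathway from 1,3-bisphosphoglycerate to 2-phosphoglycerate, rose by 1.17 and 1.12 in BxPC-3 and by 0.89 and 1.05 in MiaPaCa-2, and LDHA, which makes lactate, by 0.85 and 1.05. These 3 had the largest enzyme changes in PANC-1, 0.49, 0.55 and 0.47, where none was called and where their groups did not overlap. The PANC-1 changes were 0.24 each without DMSO replicate 1, which had the lowest LDHA value of that group (515 where the others had 836 and 829). Of the other phosphofructokinases, PFKM rose by 0.91 and 0.65 and the platelet type PFKP by 0.68 and 0.56 in BxPC-3 and MiaPaCa-2. HK1 rose by 0.84 and 0.93, and ALDOC by 0.92 and 0.53; the ALDOC call in MiaPaCa-2 was lost without THZ1 replicate 3 (adjusted p 0.0538). In PANC-1 these 4 changed by 0.23, 0.13, 0.15 and 0.15, none called, and PFKM by 0.0069 without DMSO replicate 1. GAPDH, PGK1, PGAM1, LDHA, ENO1, TPI1, ALDOA and PKM have processed pseudogenes or close relatives, and how reads shared with them were counted is not given in the sources used here.

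HK2 and ENO2 stayed behind the other enzymes. HK2, the inducible hexokinase, was 88.7, 85.3 and 84.7 with DMSO and 114, 108 and 107 with THZ1 in BxPC-3, a change of 0.34 that was not called (adjusted p 0.109). It was called without PANC-1 DMSO replicate 1 (adjusted p 2.18e-05), a library that enters through the spread shared by the lines; HK2 changed by -0.04 with TMM factors and by -0.83 with ERCC scaling, where it was called lower. In MiaPaCa-2 HK2 was 75.6, 83.1 and 77.1 with DMSO and 73.8, 79.2 and 72.8 with THZ1 (-0.06), and the groups overlapped. ENO2, the neuronal enolase, had the lowest mean change: 5.07, 4.94 and 5.298 against 8.02, 8.88 and 6.62 in BxPC-3 (0.53, adjusted p 0.00414), 38.03, 36.8 and 41.5 against 45.4, 46.3 and 44.9 in MiaPaCa-2 (0.23, adjusted p 0.181), and 27.9, 19.01 and 17.7 against 22.1, 18.3 and 21.8 in PANC-1 (-0.03; 0.16 without DMSO replicate 1). HK2 in PANC-1 was 12.9, 25.9 and 27.3 with DMSO and 27.4, 30.5 and 30.2 with THZ1, with replicate 1 the low value (0.46, and 0.14 without it).

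Ratios of paralogs within a library do not depend on the library scale. The log2 ratio of HK1 to HK2 reads in BxPC-3 was 0.68 ± 0.06 (SD, n = 3) for DMSO and 1.18 ± 0.03 for THZ1. In MiaPaCa-2 it was 1.04 ± 0.08 and 2.03 ± 0.06, so the shifts were 0.50 (SE 0.04) and 0.99 (SE 0.06) with no overlap. That of ENO1 to ENO2 shifted by 0.61 (SE 0.14) and 0.78 (SE 0.07), and by 0.18 (SE 0.09) in PANC-1, also without overlap. So in both lines the balance of hexokinase and enolase mRNA moved towards HK1 and ENO1. PFKL over PFKP shifted by 0.32 (SE 0.01) in BxPC-3 and 0.20 (SE 0.04) in MiaPaCa-2, and ALDOA over ALDOC by 0.55 (SE 0.11) in MiaPaCa-2 only without overlap, with 0.15 (SE 0.25) in BxPC-3. PFKL over PFKM moved by 0.08 (SE 0.04) and 0.12 (SE 0.08), and the groups overlapped. In PANC-1 every other pair overlapped.

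**Figure D2:**
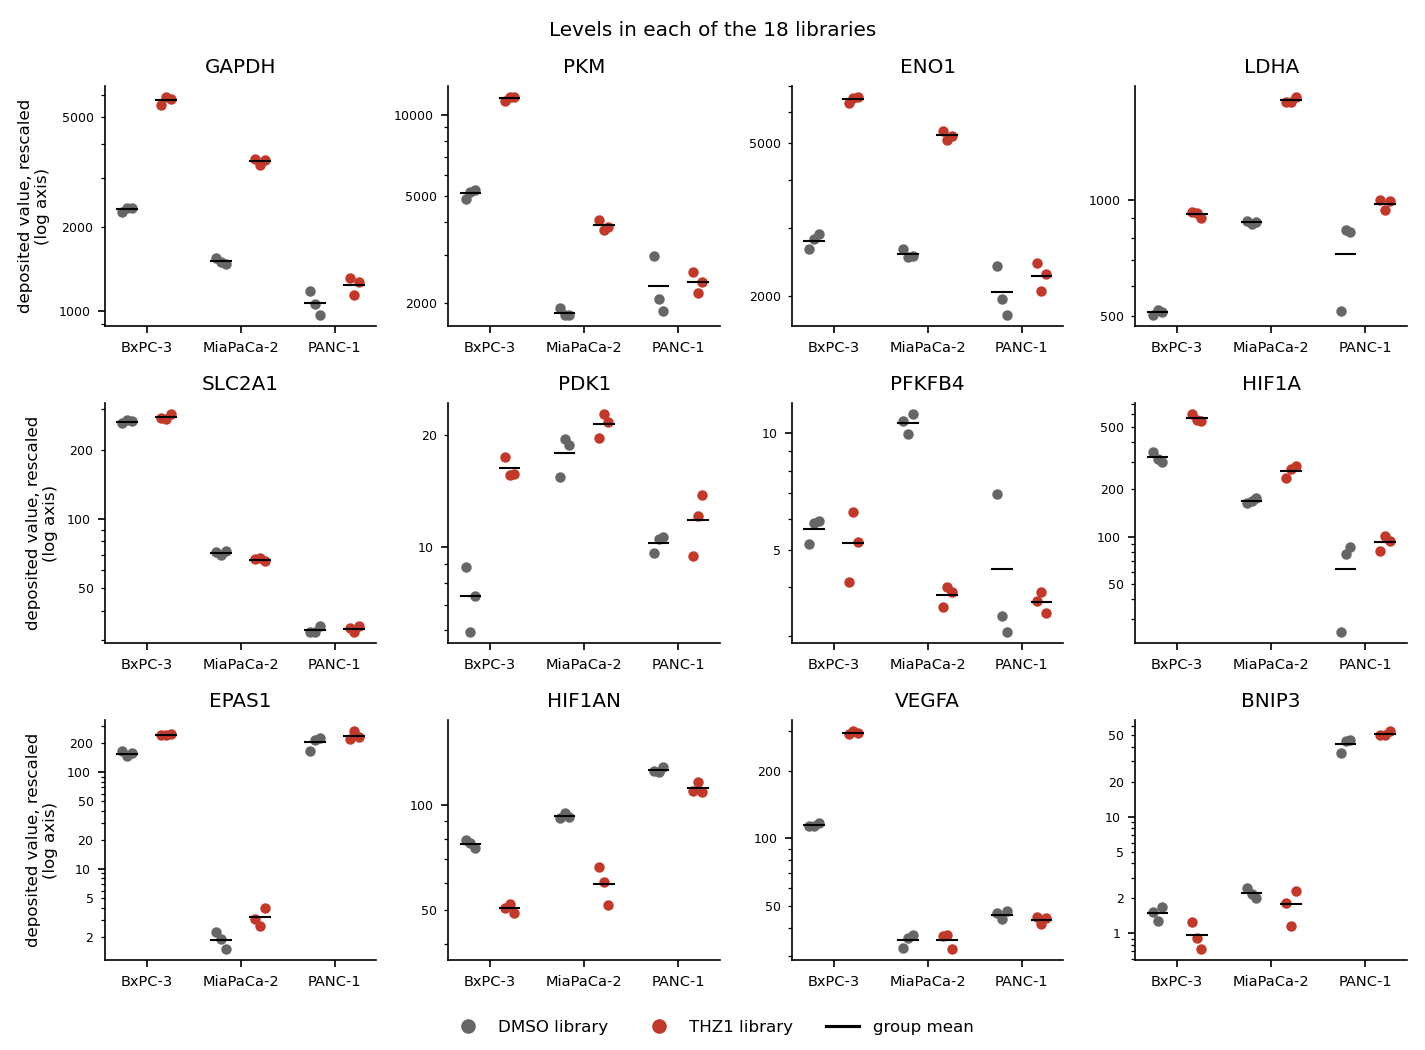
Rescaled deposited value (log y axis) of 12 members in each of the 18 libraries, DMSO grey and THZ1 red, with group means as bars. GAPDH, PKM, ENO1 and LDHA separate without overlap in BxPC-3 and MiaPaCa-2, VEGFA separates in BxPC-3, and PFKFB4 in MiaPaCa-2.

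Of the transporters, the lactate carriers rose and the glucose carrier SLC2A1 did not. SLC16A1, the lactate carrier MCT1, was 103, 96.4 and 100.1 with DMSO and 249.8, 245 and 236 with THZ1 in BxPC-3 (1.28, SE 0.17, adjusted p 7.04e-06). It was 197, 211 and 209.6 with DMSO and 383, 440.5 and 419.8 with THZ1 in MiaPaCa-2 (1.00, adjusted p 9.73e-05). In PANC-1 SLC16A1 was 30.5, 57.5 and 59.4 with DMSO and 62.5, 72.6 and 65.8 with THZ1 (0.50, adjusted p 0.134; 0.19 without DMSO replicate 1), and the groups did not overlap. SLC16A3, the hypoxia-inducible carrier MCT4, rose by 0.64 in BxPC-3 and by 0.85 in MiaPaCa-2 and changed by -0.14 in PANC-1, or 0.16 without DMSO replicate 1, where its level was highest (475 ± 188, SD, n = 3, against 121 in MiaPaCa-2 and 110.3 in BxPC-3 with DMSO).

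SLC2A1, the glucose carrier GLUT1, was 260.3, 268 and 266 with DMSO and 274, 272 and 285 with THZ1 in BxPC-3 (0.07, adjusted p 0.367). It was 72.2, 69.6 and 72.3 with DMSO and 66.9, 67.7 and 65.6 with THZ1 in MiaPaCa-2 (-0.10, adjusted p 0.195), and 32.4, 32.2 and 34.4 against 33.7, 32.2 and 34.3 in PANC-1 (0.02). The BxPC-3 and MiaPaCa-2 groups did not overlap, in opposite directions. The direction in BxPC-3 depended on the scale: SLC2A1 was called lower in both lines with TMM factors (-0.32 and -0.33) and with ERCC scaling (-1.12 and -1.37). SLC2A3, the neuronal-type carrier GLUT3, was near the detection limit in every line (group means 0.115 to 1.20) and gave no call.

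The kinases divided by line. PDK1, which inhibits pyruvate dehydrogenase and so keeps pyruvate from the mitochondria, was 8.86, 5.91 and 7.43 with DMSO and 17.4, 15.6 and 15.7 with THZ1 in BxPC-3 (1.05, SE 0.14, adjusted p 9.45e-06). In MiaPaCa-2 PDK1 was 15.4, 19.5 and 18.7 with DMSO and 19.6, 22.8 and 21.7 with THZ1 (0.25, adjusted p 0.152), and in PANC-1 9.63, 10.5 and 10.7 against 9.502, 12.1 and 13.8 (0.17). The response in MiaPaCa-2 was 0.80 below that in BxPC-3 (-0.80, SE 0.20, adjusted p 0.0135). PDK3 rose by 0.57 and 0.65 in BxPC-3 and MiaPaCa-2, so that the PDK1 to PDK3 read ratio shifted by 0.51 (SE 0.15) in the first and by -0.47 (SE 0.17) in the second, without overlap in either.

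PFKFB4 and PFKFB3, which make fructose 2,6-bisphosphate, the activator of phosphofructokinase, fell in MiaPaCa-2. PFKFB4 was 10.8, 9.92 and 11.2 with DMSO and 3.57, 4.02 and 3.89 with THZ1 there (-1.27, SE 0.20, adjusted p 4.08e-05). In BxPC-3 it was 5.17, 5.85 and 5.93 with DMSO and 4.13, 6.25 and 5.25 with THZ1 (-0.11, adjusted p 0.648), and in PANC-1 6.95, 3.37 and 3.06 against 3.69, 3.89 and 3.45 (-0.16; 0.15 without DMSO replicate 1, which held the 6.95). Only MiaPaCa-2 separated. PFKFB3 was 79.2, 81.1 and 73.3 with DMSO and 49.01, 50.2 and 48.2 with THZ1 in MiaPaCa-2 (-0.65, adjusted p 2.08e-06), with -0.08 in BxPC-3 and 0.07 in PANC-1. The response of PFKFB4 was 1.16 lower in MiaPaCa-2 than in BxPC-3 (-1.16, SE 0.28, adjusted p 0.00991) and that of PFKFB3 0.57 lower (-0.57, SE 0.11, adjusted p 0.00194). Both kinases fell in BxPC-3 too with ERCC scaling (-1.08 and -1.24) and with TMM factors (-0.44 and -0.46). PFKFB2 rose by 0.57 in BxPC-3 and changed by 0.29 in MiaPaCa-2 and 0.14 in PANC-1 (-0.075 without DMSO replicate 1).

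Both HIF alpha subunits were higher with THZ1 in BxPC-3. HIF1A, the oxygen-labile subunit of HIF-1, was 345, 311 and 300.3 with DMSO and 603, 551 and 547 with THZ1 (0.83, SE 0.29, adjusted p 0.0231). In MiaPaCa-2 it was 165, 169 and 176 with DMSO and 236, 269 and 282 with THZ1 (0.62, adjusted p 0.0831), and the groups did not overlap. In PANC-1 it was 24.6, 77.6 and 85.9 with DMSO and 81.4, 102 and 93.3 with THZ1 (0.73, adjusted p 0.18), and 0.17 without DMSO replicate 1, the low value. The fit shares 1 estimate of the spread between lines, and without that library the HIF1A adjusted p was 1.16e-09 in BxPC-3 and 1.33e-07 in MiaPaCa-2. The BxPC-3 call was lost without BxPC-3 DMSO replicate 2 (adjusted p 0.0564), DMSO replicate 3 (0.0635) or THZ1 replicate 1 (0.0641).

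EPAS1, which encodes HIF-2 alpha, was 165, 146 and 157 with DMSO and 242, 241 and 249 with THZ1 in BxPC-3 (0.64, adjusted p 0.000684). MiaPaCa-2 had little of it, 2.23, 1.89 and 1.47 with DMSO and 3.02, 2.59 and 3.999 with THZ1 (0.55, adjusted p 0.00255). PANC-1 had 168, 216 and 229 with DMSO and 222, 268 and 229.7 with THZ1 (0.24, adjusted p 0.291; 0.10 without DMSO replicate 1), and the groups overlapped. Under DMSO, EPAS1 was 5.79 log2 units lower in MiaPaCa-2 than in BxPC-3 (-5.79) and 6.16 lower than in PANC-1. HIF1A was 2.51 lower in PANC-1 than in BxPC-3 (-2.51, or -1.95 without PANC-1 DMSO replicate 1). The F-test over the lines gave an adjusted p of 4.63e-16 for EPAS1 and 2.73e-06 for HIF1A. With ERCC scaling the HIF1A changes were -0.36, -0.67 and 0.45 and those of EPAS1 -0.54, -0.36 and -0.04, with EPAS1 in BxPC-3 called lower, and with TMM factors none of the 6 was called.

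On the deposited scale with all libraries, none of the 4 genes of oxygen sensing and HIF turnover was called higher in any line. Of all genes, 40.0%, 36.5% and 0.274% were called higher in the 3 lines. Without PANC-1 DMSO replicate 1, EGLN1 and VHL were called higher in BxPC-3 and MiaPaCa-2. HIF1AN, the asparaginyl hydroxylase FIH that blocks HIF's binding of coactivators, fell in BxPC-3 and MiaPaCa-2. It was 79.2, 77.7 and 75.3 with DMSO and 50.9, 51.97 and 49.2 with THZ1 in BxPC-3 (-0.60, SE 0.08, adjusted p 6.24e-06), and 91.6, 94.4 and 92.2 against 66.2, 60.4 and 51.9 in MiaPaCa-2 (-0.64, adjusted p 3.96e-06). In PANC-1 it was 125, 124 and 128 with DMSO and 109, 116 and 109 with THZ1 (-0.17, adjusted p 0.219). The groups did not overlap in any of the 3 lines, and HIF1AN was lower with THZ1 in each. It was called lower in BxPC-3 and MiaPaCa-2 under all 31 alternatives tried, with -1.77 and -1.92 on the ERCC scale.

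EGLN2, the prolyl hydroxylase PHD1, was 14.3, 13.5 and 13.7 with DMSO and 5.61, 8.06 and 8.48 with THZ1 in BxPC-3 (-0.84, SE 0.23, adjusted p 0.00472). It changed by 0.13 in MiaPaCa-2 and by -0.24 in PANC-1, where the sign turned without DMSO replicate 1 (0.10). EGLN1, the main HIF prolyl hydroxylase PHD2, was 25.5, 20.8 and 22.7 with DMSO and 30.5, 32.2 and 32.1 with THZ1 in BxPC-3 (0.45, adjusted p 0.142), and 111, 112 and 121 against 132, 144 and 138 in MiaPaCa-2 (0.27, adjusted p 0.395). Those groups did not overlap, and both changes were called without PANC-1 DMSO replicate 1 (adjusted p 1.19e-05 and 0.00296). In PANC-1 EGLN1 was 19.9, 54.01 and 56.9 with DMSO and 46.5, 55.8 and 48.2 with THZ1 (0.33, and -0.15 without DMSO replicate 1). The EGLN1 to EGLN2 read ratio shifted by 1.39 log2 units (SE 0.17) in BxPC-3 without overlap and by 0.12 (SE 0.13) in MiaPaCa-2. VHL, which marks hydroxylated HIF alpha for destruction, changed by 0.21, 0.25 and -0.09, none called; without PANC-1 DMSO replicate 1 the last was 0.065, and the first and second were called (adjusted p 0.00771 and 0.00181).

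Of the 7 hypoxia-induced genes, 5 rose in BxPC-3 (median change 0.87) and 5 in MiaPaCa-2 (0.71), where 40.0% and 36.5% of all genes rose. None was called in PANC-1 (0.31). In BxPC-3 and MiaPaCa-2 0 fell, where 18.9% and 19.8% of all genes did. The ERCC medians were -0.27, -0.54 and 0.03. The collagen prolyl hydroxylases, BNIP3L and NDRG1 rose in both lines, VEGFA in BxPC-3 and ADM in MiaPaCa-2. P4HA2 was 28.01, 26.8 and 28.9 with DMSO and 59.3, 56.2 and 58.8 with THZ1 in BxPC-3 (1.03, adjusted p 7.1e-09), 32.9, 33.2 and 33.9 against 60.1, 63.9 and 69.3 in MiaPaCa-2 (0.93, adjusted p 3.7e-08), and 34.1, 33.2 and 35.4 against 44.7, 40.8 and 43.02 in PANC-1 (0.32, adjusted p 0.0618). It separated in all 3 lines, and in PANC-1 its p was 0.0124 without DMSO replicate 1. P4HA1 rose by 0.87 and 0.71 and changed by 0.49 in PANC-1, and BNIP3L, a mitophagy receptor, rose by 0.59 and 0.80 and changed by 0.41. Without DMSO replicate 1 these PANC-1 changes were 0.26 and 0.16.

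VEGFA, the angiogenic growth factor, gave the largest change of any member and only in 1 line. It was 113, 114 and 117 with DMSO and 292, 301 and 293 with THZ1 in BxPC-3 (1.36, SE 0.08, adjusted p 7.91e-10). In MiaPaCa-2 it was 32.7, 36.1 and 37.1 with DMSO and 37.01, 37.4 and 32.1 with THZ1 (0.01, adjusted p 0.95), and in PANC-1 46.4, 43.6 and 47.7 against 44.98, 41.6 and 44.2 (-0.07, adjusted p 0.551). The groups overlapped in both. The response was 1.35 lower in MiaPaCa-2 than in BxPC-3 (-1.35, adjusted p 1.39e-06) and 1.43 lower in PANC-1 (-1.43, adjusted p 2.39e-07). With ERCC scaling the first difference was -1.42 (adjusted p 0.000556) and the second -0.52, no longer called (adjusted p 0.0961). VEGFA on the ERCC scale changed by 0.17 in BxPC-3 (not called) and fell by 1.25 in MiaPaCa-2.

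NDRG1, a stress-induced gene, was 77.2, 72.5 and 80.1 with DMSO and 144, 151 and 150.4 with THZ1 in BxPC-3 (0.95, adjusted p 3.42e-06) and 14.7, 12.5 and 14.4 against 29.7, 35.4 and 32.6 in MiaPaCa-2 (1.18, adjusted p 4.23e-07). In PANC-1 it was 21.3, 15.3 and 15.5 with DMSO and 17.7, 16.2 and 19.8 with THZ1 (0.05; 0.20 without DMSO replicate 1). ADM, a vasodilator peptide, rose by 0.54 in MiaPaCa-2 (from 5.28 to 8.11) and changed by 0.03 in BxPC-3 and -0.16 in PANC-1 (-0.25 without DMSO replicate 1). BNIP3, a mitophagy receptor like BNIP3L, was abundant in PANC-1 alone: 35.2, 44.4 and 45.7 with DMSO and 50.3, 50.2 and 54.6 with THZ1 (0.31, adjusted p 0.243; 0.19 without DMSO replicate 1), against 1.52, 1.28 and 1.67 in BxPC-3 and 2.47, 2.16 and 2.004 in MiaPaCa-2 with DMSO. THZ1 gave 1.25, 0.905 and 0.727 in BxPC-3 (-0.35, adjusted p 0.0624) and 1.83, 1.16 and 2.32 in MiaPaCa-2 (-0.23).

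Enzymes and hypoxia-induced genes were then compared within each library. The 16 enzymes took 1.91% ± 0.06 (SD, n = 3) of endogenous reads with DMSO and 2.61% ± 0.02 with THZ1 in BxPC-3, 1.28% ± 0.03 and 1.69% ± 0.03 in MiaPaCa-2, and 1.17% ± 0.04 and 1.30% ± 0.08 in PANC-1. The THZ1 share was 1.37, 1.32 and 1.11 times the DMSO share, and the groups did not overlap in any line, also without PANC-1 DMSO replicate 1 (1.16% and 1.30%). In PANC-1 they nearly touched, with 1.203% in the highest DMSO library and 1.210% in the lowest THZ1 library. Abundant enzymes weigh most in this summed share: in BxPC-3 DMSO replicate 1, PKM had 102728 reads, ENO1 55923 and HK2 1871. The 7 hypoxia-induced genes took 0.0366% ± 0.001 and 0.0458% ± 0.0002 in BxPC-3, without overlap. They took 0.0187% ± 0.0003 and 0.0196% ± 0.0007 in MiaPaCa-2 and 0.0286% ± 0.0062 and 0.0317% ± 0.0007 in PANC-1, with overlap in both, and 0.0321% and 0.0317% in PANC-1 without DMSO replicate 1. VEGFA gave most of the BxPC-3 rise in the hypoxia-induced share. BxPC-3 replicate 1 had 16889981 endogenous reads with DMSO and 16937302 with THZ1. In these libraries VEGFA had 2386 and 3747 reads, and NDRG1, the next highest of the 7, had 1628 and 1849. A share depends on the other genes of the library too.

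The gap between the median enzyme and the median hypoxia-induced gene of a library widened by 0.12 log2 units (SE 0.04) in BxPC-3 and by 0.39 (SE 0.05) in MiaPaCa-2, without overlap, and changed by -0.08 (SE 0.06) in PANC-1, with overlap. In BxPC-3 the groups nearly touched, with 3.711 in the highest DMSO library and 3.726 in the lowest THZ1 library. As a score over chosen genes the gap carries no p. Its size moved with its definition: with means in place of medians it was 0.34, 0.27 and 0.00, and with PDK1, PFKFB3, PFKFB4 and EGLN1 counted as hypoxia-induced it was 0.37 in BxPC-3 and -0.28 in PANC-1. In BxPC-3 and MiaPaCa-2 every definition tried gave a wider gap with THZ1. In PANC-1 the sign was not stable.

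**Figure D3:**
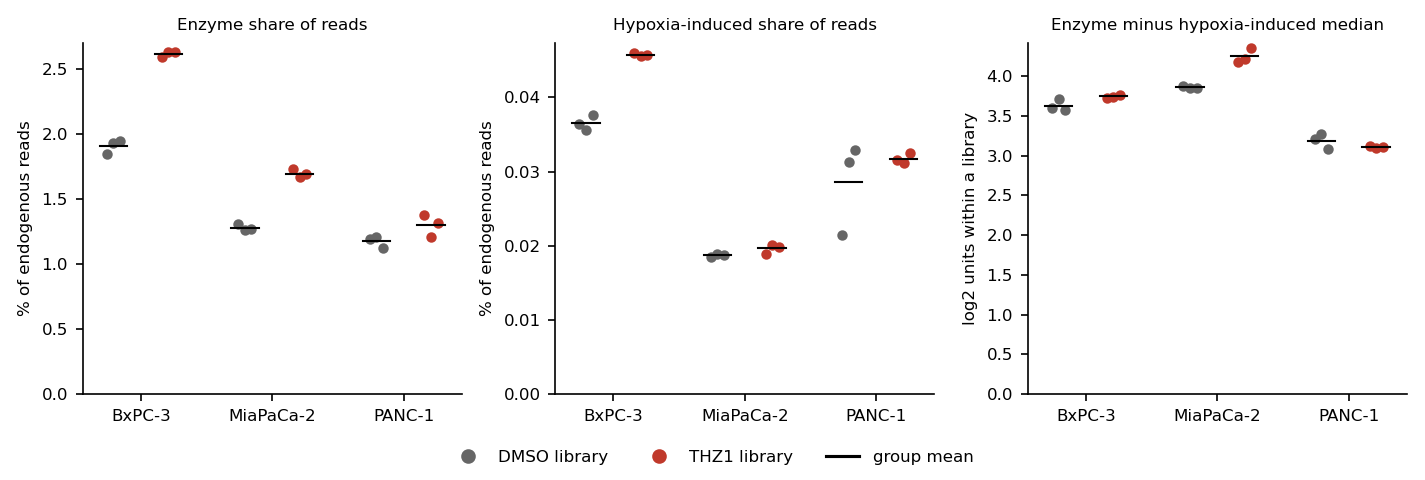
Share of endogenous reads in the 16 enzymes and in the 7 hypoxia-induced genes (%), and the enzyme minus hypoxia-induced gap of medians (log2), in each library, with group means as bars. The enzyme share is higher with THZ1 in all 3 lines, though the PANC-1 groups nearly touch, while the hypoxia-induced share separates in BxPC-3 only. VEGFA gave most of that BxPC-3 rise.

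The lines differed before treatment. With DMSO, 34 of 38 members differed between the lines by the F-test (79.1% of all genes did). The response to THZ1 differed for 25 of 38 on the deposited scale (50.6% of all genes), 11 on the ERCC scale (43.4%) and 17 with TMM factors (42.7%), and for 34 without PANC-1 DMSO replicate 1, where the share of all genes was also larger (70.3%). PANC-1 against BxPC-3 gave 2 members higher and 20 lower on the deposited scale (11.9% and 30.8% of all genes), and with ERCC scaling 7 higher and 0 lower (28.6% and 1.54%). These were mostly different genes: HIF1AN and BNIP3 were called higher on both, and the 20 lower calls were lost on the ERCC scale, with GAPDH, ALDOA, GPI and VEGFA still negative there (-0.17, -0.31, -0.27 and -0.52). MiaPaCa-2 against BxPC-3 gave 4 members, PDK1, PFKFB3, PFKFB4 and VEGFA (13.8% of all genes), each lower in MiaPaCa-2. PFKFB4 and VEGFA kept this call on the ERCC scale (-1.28 and -1.42) and with TMM factors (-1.02 and -1.20), and PDK1 and PFKFB3 did not, with differences of -0.95 and -0.68 on the ERCC scale (adjusted p 0.0812 and 0.0777) and -0.68 and -0.42 with TMM factors (0.0622 and 0.059).

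**Figure D4:**
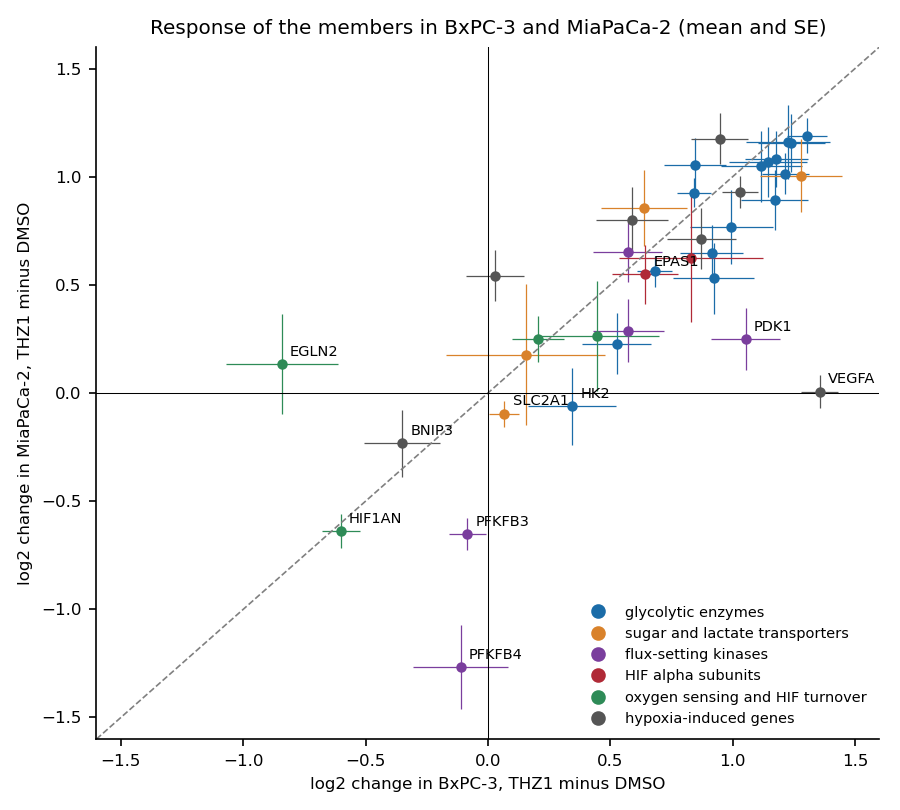
Change of each member with THZ1 in BxPC-3 (x axis) and MiaPaCa-2 (y axis), log2, with SE bars, coloured by role; the dashed line marks equal changes. Most enzymes lie near the line, HK2 and ENO2 nearer the origin, and VEGFA, PDK1, PFKFB3 and PFKFB4 lie below it.

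Other genes of the same pathways, listed by function, were read in the same fit. Genes of the pentose phosphate pathway, which branches from glucose 6-phosphate, rose. They were 7 of 7 genes in BxPC-3 (median 0.87) and 6 of 7 in MiaPaCa-2 (1.03), where 40.0% and 36.5% of all genes rose. In PANC-1 0 genes of the pathway were called. RPIA had its highest mean change (1.10, 1.11 and 0.33 in the 3 lines; the last 0.20 without PANC-1 DMSO replicate 1) and PGLS its lowest (0.83, 0.82 and -0.46). PGLS in PANC-1 was 47.04, 14.1 and 14.6 with DMSO, and the change was 0.09 without replicate 1. A list of 12 other genes placed under glycolysis also held PGAM5, G6PC3 and C12orf5. Of these 12, 8 rose in BxPC-3 and 6 in MiaPaCa-2, beside 40.0% and 36.5% of all genes. They ran from ENO3, the muscle enolase (1.08 and 0.93), to HKDC1, a hexokinase-like gene (0.01 and 0.50, not called). With ERCC scaling neither list had a gene called higher in any line, where 1.28%, 1.36% and 0.0323% of all genes were.

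A list of 11 genes held pyruvate carriers, subunits of pyruvate dehydrogenase and the kinases and phosphatases that regulate it. Of these, 5 rose and 3 fell in BxPC-3, beside 40.0% and 18.9% of all genes. In MiaPaCa-2 6 rose and 2 fell, beside 36.5% and 19.8% of all genes. PDHA1, the E1 alpha subunit of pyruvate dehydrogenase, rose by 0.87 and 1.00. PDP2, a phosphatase that reactivates that enzyme, fell: 11.1, 9.88 and 10.7 with DMSO and 3.12, 4.03 and 4.68 with THZ1 in BxPC-3 (-1.24, adjusted p 1.09e-07), and 19.5, 21.7 and 20.04 against 9.71, 10.3 and 9.37 in MiaPaCa-2 (-0.99, adjusted p 1.77e-06). PDP2 also lay lower in each PANC-1 THZ1 library (-0.20, not called).

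Of a further 25 hypoxia-induced genes outside the set, 12 rose and 4 fell in BxPC-3 (median 0.36), near the 40.0% and 18.9% of all genes. In MiaPaCa-2 5 rose and 7 fell (-0.04), beside 36.5% and 19.8% of all genes. PLOD2, a lysyl hydroxylase, rose by 1.10 in BxPC-3 and changed by 0.37 and 0.78 in MiaPaCa-2 and PANC-1, the latter 0.26 without DMSO replicate 1. CITED2, which competes with HIF for its coactivators CREBBP and EP300, was 25.5, 28.7 and 27.9 with DMSO and 8.100, 7.89 and 7.99 with THZ1 in BxPC-3 (-1.65, adjusted p 3.57e-10), fell by 0.31 in MiaPaCa-2 and changed by -0.17 in PANC-1 (-0.27 with adjusted p 0.019 without DMSO replicate 1). In PANC-1 1 of the 25 fell, beside 0.228% of all genes. It was DDIT4, an inhibitor of mTORC1 named after its value was seen (-0.76). Of 11 other genes of the HIF pathway and its ubiquitin ligases 2 rose and 3 fell in each of BxPC-3 and MiaPaCa-2. Of all genes, 40.0% rose and 18.9% fell in the first line, and 36.5% and 19.8% in the second. TCEB2 (elongin B, part of the VHL ligase) rose by 1.40 and 1.19, while ASB13, a substrate adaptor of elongin-cullin ligases, fell by 1.12 and 1.39.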

How the data were processed

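PolyA RNA was sequenced from stranded libraries, with ERCC spike-ins added to the extracted RNA, per the labels. STAR and hg19 are named in the submitters' processing notes, with the counting program, annotation, strand use and divisors not given in the sources used here. Deposited library columns hold a signal that the authors made by dividing whole read counts by 1 number per library: 100% of values multiplied by it were whole within 0.001. The authors' deposited log2 means and ratios were not used.

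Values times 17.6795 were fitted as log2(value + 1) with limma-trend (limma 3.58.1, R 4.3.3), 6 group means over 18 libraries, residual df 12, for genes at 1 or more in at least 3 libraries. Benjamini-Hochberg adjustment ran over all 15354 genes at 0.05. This is the test planned for normalised values; a signal in this unit had not been foreseen. Differences between lines were contrasts and F-tests of that fit. The 3 replicates of a group are biological, per the labels. The script was tested on simulated data.

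Alternatives were ERCC, equal-sum, TMM and DESeq2 scaling, pseudocounts of 0.25 and 5, a filter of 5 or none, edgeR 4.0.16 and DESeq2 1.42.0 on recovered reads, the replicate number as a block, each line alone, and leaving out each library. On recovered reads edgeR called 8502, 8219 and 19 genes in BxPC-3, MiaPaCa-2 and PANC-1. Intervals for read shares would cover counting error only, so the spread of replicates is given.

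The members and lists were chosen with earlier results of these data known. Values per library were printed for the members with the highest and lowest mean change of each role (mean value of at least 5), for members whose response differed by at least 1 log2 unit, and, chosen after their values were seen, for HK2, LDHA, PFKFB3 and EGLN2 and, outside the set, PGLS, PDP2 and CITED2. The highest and lowest of each further pathway list were named. Promoter sequences are from RefSeq (GRCh38.p14).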

Additional observations from a re-analysis of the deposited data

Results flagged for a closer look

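Responses to THZ1 that differed between the lines by limma's F-test drew attention to 25 members. Each is given with the largest of its 3 pairwise differences of response in log2 units on the deposited scale. In PANC-1 relative to MiaPaCa-2, the response differed for HK1 by -0.77, LDHA by -0.59, SLC16A3 by -0.996, PDK3 by -0.64, PFKFB3 by 0.72, HIF1AN by 0.47, NDRG1 by -1.12 and ADM by -0.71. In PANC-1 relative to BxPC-3, the response differed for GPI by -1.18, PFKL by -1.05, PFKM by -0.69, PFKP by -0.55, ALDOA by -1.21, ALDOC by -0.77, TPI1 by -1.16, GAPDH by -1.08, PGK1 by -0.68, ENO1 by -1.07, PKM by -1.10, SLC16A1 by -0.78, PDK1 by -0.88, VEGFA by -1.43, BNIP3 by 0.66 and P4HA2 by -0.72. In MiaPaCa-2 relative to BxPC-3, the response differed for PFKFB4 by -1.16. On the ERCC scale 11 members and with TMM factors 17 passed this test. Without PANC-1 DMSO replicate 1 the test called 34 members and 70.3% of all genes, where it called 50.6% of all genes with that library. Groups of 3 are too small for a test of single outlying libraries.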

How the results depend on the processing

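Other filters, pseudocounts, the fit on each line alone and the replicate block left most results where they were; the library scale did not. Members called higher and lower in BxPC-3 numbered 0 and 14 on the ERCC scale (1.28% and 59.1% of all genes). With equal sums they numbered 8 and 8 in BxPC-3, where 1416 and 6607 of all 15368 genes were called. The number called lower there was 6 with TMM factors, 5 with DESeq2 size factors, 6 with edgeR and 5 with DESeq2 on recovered reads, and 1 with the pseudocount and filter in the deposited unit, an alternative chosen after seeing the data. In MiaPaCa-2 members called higher and lower numbered 0 and 22 on the ERCC scale (1.36% and 73.9% of all genes). With equal sums they numbered 9 and 9 in MiaPaCa-2, where 1437 and 6627 of all 15368 genes were called. In PANC-1 the number called higher was 1 with a pseudocount of 5, 1 with a filter of 5, 3 with DESeq2 on recovered reads and 2 in the deposited unit. The response differed between lines for 11 members on the ERCC scale and 15 with DESeq2 size factors. The cause was not tested. Short of turning direction, calls were lost for 12 and 11 members in BxPC-3 and MiaPaCa-2 with equal sums and for 8 and 5 with TMM factors.

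The gap of enzymes over hypoxia-induced genes changed by 0.19 in BxPC-3 with a pseudocount of 5 and by 0.34, 0.57 and 0.0050 in BxPC-3, MiaPaCa-2 and PANC-1 with the pseudocount in the deposited unit. With 4 genes added it changed by 0.37 in BxPC-3 and -0.28 in PANC-1, and with means by 0.34, 0.27 and 0.00020. Tools, the fit on a line alone and the replicate block do not enter it.

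Leaving out 1 library at a time gave 26 to 30 members called higher and 2 to 3 lower in BxPC-3, 22 to 28 and 3 to 3 in MiaPaCa-2, and 0 to 10 and 0 to 0 in PANC-1, where the high counts came without a DMSO library. It gave 20 to 34 members with a different response between lines and 33 to 38 that differed under DMSO; the gap changed by 0.09 to 0.15, 0.34 to 0.43 and -0.13 to -0.03 in the 3 lines.

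The replicate block changed no member's call: 27 and 2, 23 and 3, and 0 and 0 members were called higher and lower. Same-numbered DMSO and THZ1 libraries of a line correlated in their deviations at -0.03 to 0.45, and differently numbered ones at -0.51 to 0.50. These ranges overlap, so whether the numbers pair the samples was not settled.

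Directions turned as follows, counting members called with the deposited scale, with the alternative or with both. On the ERCC scale in BxPC-3: HK1 -0.34, HK2 -0.83, GPI -0.045, PFKL -0.19, PFKM -0.27, PFKP -0.51, ALDOC -0.095, PGK1 -0.019, PGAM1 -0.072, ENO2 -0.49, PKM -0.013, LDHA -0.34, SLC2A1 -1.12, SLC16A3 -0.55, PDK1 -0.037, PDK3 -0.48, PFKFB2 -0.60, HIF1A -0.36, EPAS1 -0.54, VHL -0.96, BNIP3L -0.57, NDRG1 -0.23, P4HA1 -0.27, P4HA2 -0.13 and ADM -1.10. On the ERCC scale in MiaPaCa-2: HK1 -0.36, GPI -0.22, PFKL -0.52, PFKM -0.64, PFKP -0.73, ALDOA -0.13, ALDOC -0.60, TPI1 -0.14, GAPDH -0.10, PGK1 -0.40, PGAM1 -0.24, ENO1 -0.28, ENO2 -1.04, PKM -0.21, LDHA -0.24, SLC16A1 -0.29, SLC16A3 -0.43, PDK1 -0.98, PDK3 -0.51, PFKFB2 -0.94, EPAS1 -0.36, EGLN1 -1.02, EGLN2 -1.04, VHL -1.02, VEGFA -1.25, BNIP3L -0.47, NDRG1 -0.058, P4HA1 -0.54, P4HA2 -0.34 and ADM -0.58. With equal sums in BxPC-3: PFKP -0.048, ENO2 -0.10, SLC2A1 -0.66, SLC16A3 -0.089, PDK3 -0.080, PFKFB2 -0.15, EPAS1 -0.086, VHL -0.51, BNIP3L -0.13 and ADM -0.67. With equal sums in MiaPaCa-2: PFKP -0.085, ALDOC -0.034, ENO2 -0.41, VHL -0.39, VEGFA -0.62 and ADM -0.020. SLC2A1 in BxPC-3 turned to -0.32 with TMM factors, -0.25 with edgeR and -0.21 with DESeq2 on recovered reads. GPI in PANC-1 turned to 0.25 without DMSO replicate 1. Depth limits low genes: a value of 1 stood for as few as 6.34 reads.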
